A study of Caenorhabditis elegans with 4 samples.

Results

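Isolated NHR-10 peaks in autosome centres are the regions of the combined peak list that lay on chromosome II, III, IV or V, had their midpoint between 25 and 75% of the chromosome's span, and had no other peak of that list less than 5000 bp away on either side. The combined list held 1235 peaks, and 258 of them (20.9%) met the rule. They were thus chosen by position and spacing in the combined list, with q-values entering only through the authors' threshold. Another 312 peaks lay in the same centres with a neighbour closer than 5000 bp and are called clustered centre peaks here. The peaks came from chromatin immunoprecipitation and sequencing (ChIP-seq) of Caenorhabditis elegans L4 hermaphrodites (L4 is the final larval stage). All worms were of strain OP239, which carries the mutation unc119(ed3) and the integrated transgene wgIs239, outcrossed 3 times, and were grown at 20 °C. The transgene was introduced by bombardment and holds nhr-10 fused to TY1 EGFP FLAG along with a working unc119, so ChIP and input samples alike carried the tag. The series holds 2 ChIP samples, precipitated with an anti-GFP antibody, and 2 inputs. Groups were taken from the sample titles, since the description fields name the antibody under the inputs; no input values were used, and no worms without the tag were examined here.

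NHR-10 is a nuclear hormone receptor, a transcription factor with a zinc-finger domain that contacts DNA and a domain that can bind small lipophilic ligands. In C. elegans it is known, together with NHR-68, for turning on the genes of an alternative route of propionate breakdown when propionate builds up. The centres of worm autosomes recombine less than the arms and are rich in broadly expressed and essential genes. In ChIP-seq, fragments cross-linked to the tagged protein pile up as peaks, each scored here by a q-value, the false discovery rate that the peak caller gives it. A smaller q, and so a larger −log10 q, means that the excess of reads is less likely to be a chance one. Chromatin came from whole worms, so strong binding in few cells and weak binding in many cannot be told apart. All coordinates are WormBase WS180, counted from 1. No annotation or genome of that build was used here, so peaks were not placed in genes, exons or introns and no sequence is shown.

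The 258 isolated centre peaks were spread over all 4 chromosomes, with 64 on II, 59 on III, 62 on IV and 73 on V. Per megabase of centre this was 8.40 on II, 8.57 on III, 7.10 on IV and 7.03 on V. They made up 52.5% of the centre peaks on II, 48.0% on III, 42.5% on IV and 40.8% on V. Along the centres their numbers were similar, with 51 peaks between 25 and 35% of the span, 54 between 35 and 45%, 59 between 45 and 55%, 48 between 55 and 65% and 46 between 65 and 75%. Single chromosomes varied more, from 6 to 17 peaks in these intervals on II, 9 to 16 on III, 6 to 17 on IV and 10 to 21 on V. The emptiest interval was 65 to 75% on II and 45 to 55% on IV, and the fullest on V was 45 to 55%. Together the isolated peaks covered 213173 bp, or 0.634% of the centres.

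Because the combined list chose these peaks, their widths and q-values in it are a description and were not tested. The median width was 627.5 bp (quartiles 447.25 and 896.75 bp, range 183 to 9366 bp), against 762 bp among clustered centre peaks and 709 bp in the whole list. The median −log10 q was 5.85, against 7.23 among clustered centre peaks and 6.65 in the whole list. A q below 1e-10 was reached by 58 isolated peaks (22.5%), against 114 of the 312 clustered centre peaks (36.5%) and 30.1% of all combined peaks. Their median rank was 726, with rank 1 the smallest q. Isolated peaks were thus narrower and weaker, as scored by the authors, than the clustered peaks of the same centres. Within 5 equal groups of combined rank the median widths lay closer. They were 1505 against 1622 bp in the best group and 419 against 488.5 bp in the last. Width and score went together across the isolated peaks (Spearman's rho 0.69 over 258 regions that share the same reads), much as in the whole list (0.70 over 1235 regions).

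Chromosome IV held the fewest strong isolated peaks. A q below 1e-10 was found at 6 of its 62 isolated peaks (9.68%), against 18 of 64 on II (28.1%), 13 of 59 on III (22.0%) and 21 of 73 on V (28.8%). Chromosome IV was lowest among clustered centre peaks too. There 23 of 84 on IV reached that score, against 24 of 58 on II, 26 of 64 on III and 41 of 106 on V. None of these differences was tested. The best isolated peak on IV, chrIV:6096830-6098334, stood at combined rank 165 (q = 1.79e-19). The best on V was at rank 3, the best on III at rank 28 and the best on II at rank 34.

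**Figure D1:**
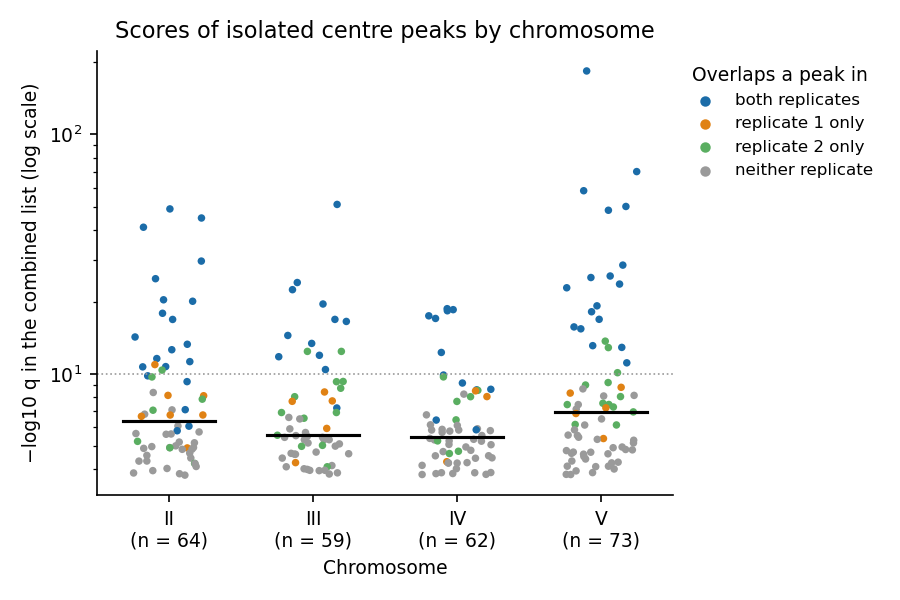
−log10 q in the combined list (log axis) for each isolated centre peak on chromosomes II, III, IV and V, coloured by the replicate lists in which it was found. Horizontal bars mark the median of each chromosome and the dotted line marks q = 1e-10, which 6 peaks on IV passed, against 13 to 21 on the others. Points are shifted sideways at random within a chromosome.

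Among the 10 isolated peaks with the smallest q, 5 were on V, 4 on II and 1 on III, and all 10 were found in both replicates. Ranks given below are within lists of unequal length, 525 peaks in replicate 1, 593 in replicate 2 and 1235 combined, so equal rank numbers do not mark equal standing. The first was chrV:6220862-6230227, at 9366 bp more than any other isolated peak. Its q was 9.41e-185 in the combined list, and the replicate peak of largest overlap had 4.28e-36 in replicate 1 and 2.14e-79 in replicate 2. Replicate 1 gave 3 peaks over this region, the strongest of them another one with q = 6.83e-44, and replicate 2 gave 2. Its neighbours lay 6702 and 9555 bp away, not far beyond the limit of 5000 bp. The second, chrV:6275118-6278816, lay near it, at 30.2% of the span against 29.96%, and was 3699 bp wide with q = 1.04e-70. The q of the largest-overlap peak was 9.17e-30 in replicate 1 and 2.31e-34 in replicate 2, at ranks 17 and 16 of those lists, and replicate 1 gave a second, weaker peak of 556 bp there.

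The other 3 of the 10 on chromosome V were single peaks in each replicate. For chrV:9730666-9732618 the q-values were 5.93e-59 combined, 1.25e-22 in replicate 1 and 2.20e-36 in replicate 2. For chrV:9342883-9345143 they were 8.89e-51, 1.02e-22 and 1.38e-34 in the same order. For chrV:11572635-11573473 they were 5.42e-49, 3.83e-24 and 3.16e-30. Replicate 2 gave the smaller q at all 3. The last of them was the narrowest of the 10, with a width of 839 bp combined, 719 bp in replicate 1 and 837 bp in replicate 2, while the others of the 10 were 1240 to 9366 bp wide in the combined list.

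On chromosome II, chrII:5543235-5544474 was likewise compact, at 1240 bp. It had q = 1.29e-49 combined, 2.39e-23 in replicate 1 and 3.75e-22 in replicate 2, where it ranked 37 and 45. The peak chrII:6346474-6349074 had q = 1.57e-45 combined, 8.18e-18 in replicate 1 and 1.47e-22 in replicate 2. Both were single peaks in each replicate.

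The remaining 3 of the 10 were broad regions that at least 1 replicate split. On III, chrIII:10214270-10217502 (3233 bp) had q = 9.00e-52 combined. Replicate 1 gave peaks of 799 and 1278 bp there, with q = 1.44e-07 and 5.46e-13, and replicate 2 gave peaks of 660 and 1903 bp, with q = 6.72e-12 and 4.83e-13. On II, chrII:6888211-6892214 (4004 bp) had q = 9.93e-42 combined, with pieces of q = 7.37e-13 and 3.45e-10 in replicate 1 and of 3.33e-08, 7.88e-05 and 6.87e-07 in replicate 2. Also on II, chrII:9282631-9285239 had q = 2.41e-30 combined, 1 peak of 2.49e-08 in replicate 1 and peaks of 6.27e-05 and 4.10e-14 in replicate 2. At these regions the combined list holds 1 peak where a replicate list holds 2 or 3 neighbouring ones.

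On chromosome III the second-best isolated peak, chrIII:4648900-4650517, had q = 7.89e-25 combined, 8.16e-09 in replicate 1 and 4.05e-15 in replicate 2. On IV, chrIV:6096830-6098334 had q = 2.65e-09 in replicate 1 and 2.74e-10 in replicate 2, and chrIV:11593295-11594635 (combined q = 2.69e-19) had 3.15e-09 and 5.45e-11. In replicate 1 they ranked 162 and 163, and in replicate 2 they ranked 167 and 152.

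The replicate lists, which the rule did not use, show how many isolated peaks each library gave by itself. Replicate 1 had a peak at 83 of the 258 (32.2%, 95% Wilson interval 26.8–38.1%), against 38.9% of all combined peaks. Replicate 2 had one at 104 (40.3%, 34.5–46.4%), against 44.6% of all combined peaks. The mean of the 2 shares was 36.2% ± 5.76 (SD, n = 2). Both replicates had one at 63 (24.4%, 19.6–30.01%), against 32.6% of all combined peaks, and neither had one at 134 (51.9%, 45.9–58.0%), against 49.1%. A further 20 isolated peaks (7.75%) were found in replicate 1 only, against 6.32% of all combined peaks, and 41 (15.9%) in replicate 2 only, against 12.1%. These shares were not tested, since how the combined list was made is not given in the sources used here and it may hold the reads of both libraries. Whether the 2 replicates were separate worm cultures is not stated in the labels.

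Recovery went with the strength of the peak in the combined list. Part of this order may be built in, as the combined list may hold the reads of both libraries, and this was not tested. The replicate lists also end at a q of 0.000119 and 0.000122. A region weaker than that in a library is therefore not listed for it. The 37 best isolated peaks, down to combined rank 244, were all found in both replicates. The first one missed by a library was chrV:8383627-8385747 at rank 254 (q = 1.89e-14), which only replicate 2 had, with q = 2.14e-05. The first one missed by both was chrV:7750611-7751539 at rank 444 (q = 2.11e-09), after 70 better-scored isolated peaks. No isolated peak beyond rank 732 was found in both, and 124 of the 258 lay beyond it. The isolated peaks found in both libraries were wide and strong in the combined list, with medians of 1155 bp and of 16.91 for −log10 q, while those found in neither had medians of 514 bp and 4.85.

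**Figure D2:**
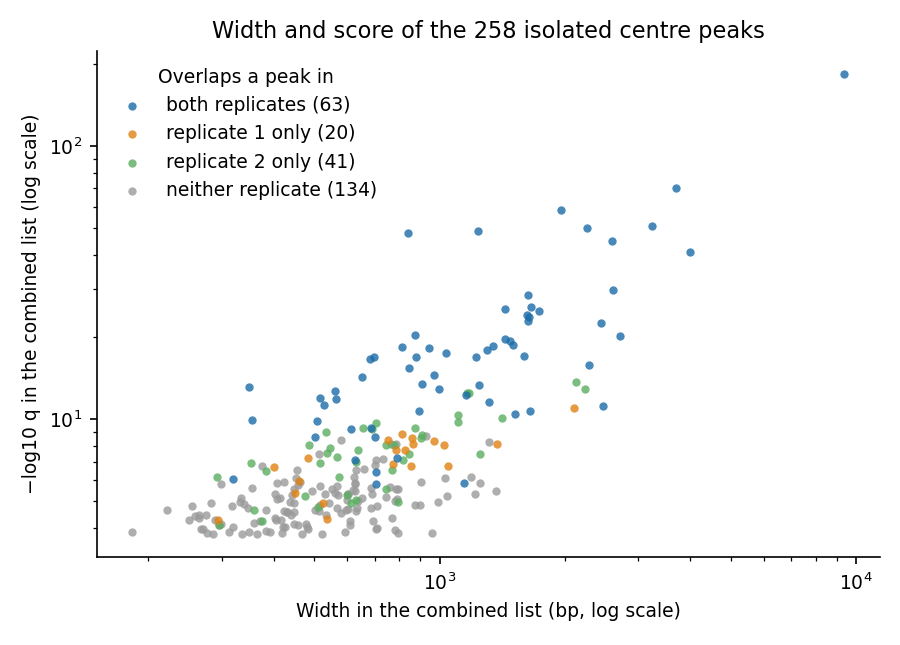
Width (bp, log axis) against −log10 q (log axis) in the combined list for the 258 isolated centre peaks, coloured by the replicate lists in which each was found. The 63 peaks in both replicates extend to the upper right but reach down to 319 bp and a −log10 q of 5.80. The 134 in neither lie towards the lower left, up to 1368 bp and a −log10 q of 8.68, so the groups overlap. The 839 bp peak on V stands to the left of the other strong ones.

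Set beside the clustered peaks of the same centres, 24.4% of isolated peaks were found in both replicates, against 39.7% of clustered ones. The share was 28.2% on autosome arms, 39.7% on chromosome X and 22.2% of 72 peaks in the centre of chromosome I. A low share was thus not particular to isolated peaks. The median rank was 726 for isolated peaks, against 554.5 for clustered ones, so shares are also given within groups of like rank. Among the best 247 combined peaks, 37 of 37 isolated and 70 of 71 clustered centre peaks were in both replicates. Among ranks 248 to 494 it was 20 of 49 isolated peaks (40.8%, 95% Wilson interval 28.2–54.8%) and 41 of 70 clustered ones (58.6%, 46.9–69.4%), and the intervals overlap. Among ranks 495 to 741 it was 6 of 50 (12.0%) and 12 of 69 (17.4%). Among ranks 742 to 988 it was 0 of 64 isolated peaks, and 1 of 44 clustered ones. Among the last 247 it was 0 of 58 in each class. Taking a count of 0 to allow 3 counts, these zeros leave room for shares of up to 4.69% of 64 and 5.17% of 58; the Wilson intervals drawn for them reach 5.66% and 6.21%. With clustered centre peaks weighted to the ranks of the isolated ones, 29.2% were in both replicates and 52.7% in neither, against 24.4% and 51.9% of isolated peaks as found. The weighted values for autosome arms were 26.2% and 56.2%, and for chromosome X 29.0% and 52.8%. No difference between isolated peaks and the other classes was tested. The 29.2% lies within the Wilson interval of the isolated peaks' own share. That interval treats peaks of the same libraries as independent and expresses counting error alone. Overlap of such intervals therefore does not show that the classes are alike.

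**Figure D3:**
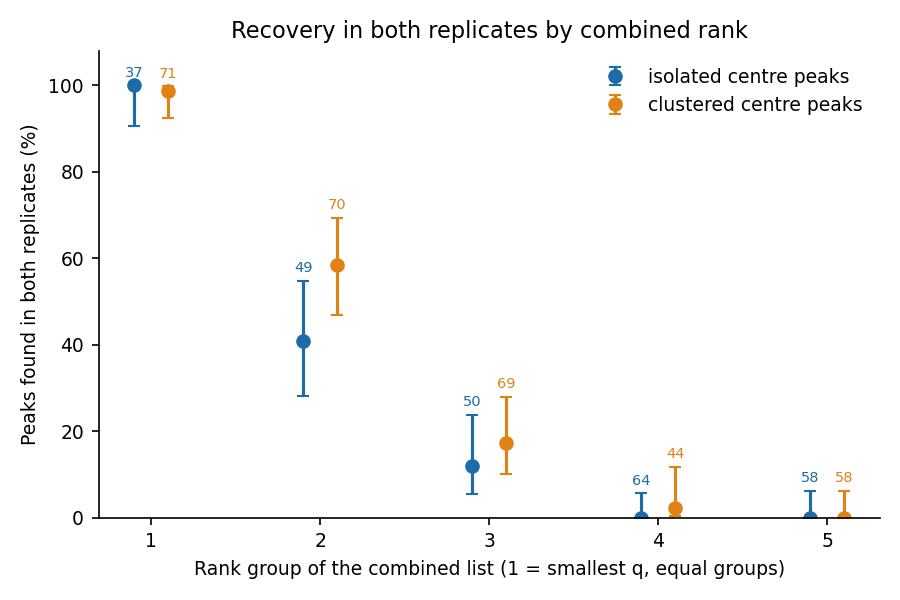
Share of peaks found in both replicates (%) in 5 groups of 247 combined peaks by rank, for isolated and clustered centre peaks. Points are shares, bars are 95% Wilson intervals and the number above each bar is how many peaks the class held in that group. Shares were 100% and 98.6% in the first group and 0 for both classes in the last. The intervals of the classes overlap in every group, which is no test of a difference.

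By chromosome, both replicates had a peak at 21 of 64 isolated peaks on II (32.8%), 12 of 59 on III (20.3%), 12 of 62 on IV (19.4%) and 18 of 73 on V (24.7%). On IV, 39 of the 62 (62.9%, 95% Wilson interval 50.5–73.8%) were in neither, against 45.3% on II, 49.2% on III and 50.7% on V. Over all combined peaks, 32.6% were in both and 49.1% in neither. The intervals of the 4 chromosomes overlap, and the differences were not tested. Chromosome IV was also the one with the fewest strong isolated peaks.

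Where both libraries had a peak, their scores rose together. Over the 63 isolated peaks in both, −log10 q in the libraries gave a Spearman's rho of 0.75 and a Pearson's r of 0.90. This is a description across regions that share the libraries and passed the same threshold. Without the 10 best-scored isolated peaks, rho was 0.71 over 53. The 124 clustered centre peaks in both gave much the same, with a rho of 0.70 and an r of 0.86. Replicate 2 gave the higher score at 38 of the 63 and replicate 1 at 25, with medians of 7.79 and 7.60. For these 63, the sum of the replicate values over the combined −log10 q had a median of 0.997 (quartiles 0.861 and 1.12). The peak of largest overlap was taken in each replicate. Both values had passed a cutoff, so the sum cannot be small. The ratio was highest, at 1.55, at chrII:5019232-5019934, a weak peak with a combined −log10 q of 5.80. The ratio cannot be formed for the other isolated peaks. In the 8 regions that a replicate split, this ratio was 0.331 to 0.896, and 0.834 to 1.22 when all pieces were summed. Among the 55 isolated peaks with 1 peak in each replicate the ratio was 0.586 to 1.55.

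**Figure D4:**
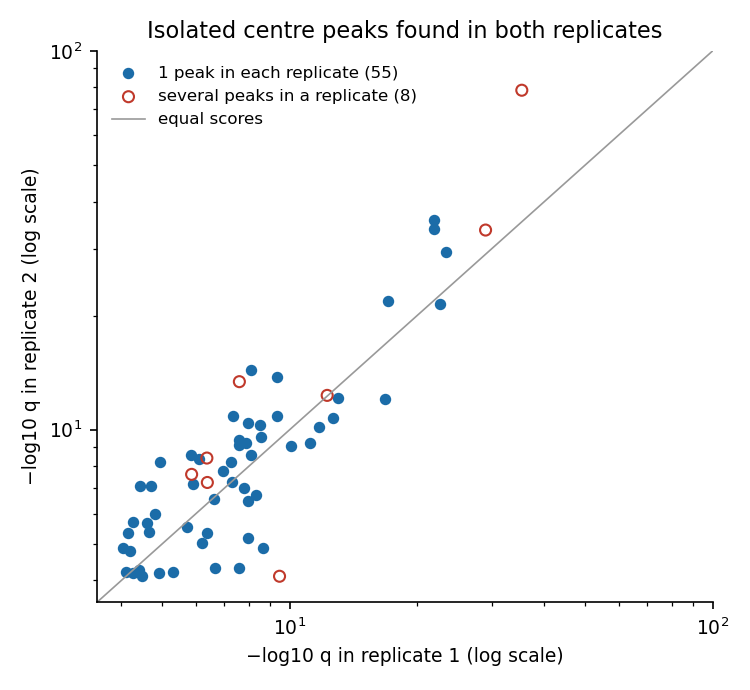
−log10 q in replicate 1 against replicate 2 (both log axes) for the 63 isolated centre peaks found in both, using the replicate peak of largest overlap. Filled points are the 55 with 1 peak in each replicate, open points the 8 with several peaks in a replicate, and the line marks equal scores; 38 points lie above it and 25 below.

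Where each library had 1 peak, the 2 libraries placed the isolated peaks within a short distance of each other. For the 55 with 1 peak in each replicate, the midpoints in the replicates differed by a median of 49.0 bp, by at most 399 bp, and by 100 bp or less at 41. Over all 63 in both, split regions included, the largest-overlap peaks differed by a median of 54.5 bp and by at most 2186.5 bp. The 111 clustered centre peaks with 1 peak in each replicate had a median of 89.0 bp and a maximum of 803.5 bp. The replicate peaks were narrower than the combined ones, with median width ratios of 0.738 in replicate 1 and 0.817 in replicate 2 for the same 55.

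By the peak of largest overlap, the rank in the replicates differed most at chrII:6888211-6892214, with 134 in replicate 1 and 568 in replicate 2. The replicates split this region at different places, and these pieces do not overlap each other. The other piece in replicate 1 ranked 95, and the others in replicate 2 ranked 244 and 329, so this difference depends on the piece taken. The next was chrII:7073037-7073563, a peak of 527 bp with 1 counterpart in each list, at rank 202 (q = 2.48e-08) in replicate 1 and 529 (q = 4.81e-05) in replicate 2. The third was chrIV:6336628-6337129, at rank 241 (q = 2.11e-07) and 530 (q = 4.81e-05). At both of these single peaks the q-value too was smaller in replicate 1.

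Among isolated peaks that only replicate 1 had, the best was chrII:10445792-10447893 (combined q = 1.11e-11), where replicate 1 gave 2 pieces of q = 3.65e-05 and 2.25e-05. It was followed by chrV:10871067-10871880, with q = 4.11e-05 in replicate 1, and by chrIV:4519641-4520497, with q = 3.92e-09 there, near its combined q of 3.06e-09. Behind chrV:8383627-8385747, the best that only replicate 2 had were chrV:8267181-8269421 (combined q = 1.26e-13, replicate 2 q = 3.45e-06) and chrIII:6279575-6280754 (3.66e-13 and 2.06e-05). Except for the peak on IV, these replicate peaks were weak, with q-values of 3.45e-06 to 4.11e-05 where the largest q in the lists was 0.000119 for replicate 1 and 0.000122 for replicate 2. The peak on IV was at rank 165 of replicate 1 and had no peak in replicate 2. Isolated peaks in neither replicate had a combined −log10 q of at most 8.68; after the first, the best were chrII:8028023-8028603 (q = 4.18e-09) and chrIV:7507087-7508404 (q = 5.64e-09, 1318 bp).

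Isolation was also counted in the single libraries. Nearly all replicate peaks overlap the combined list, so the rule that chose the isolated peaks largely fixes this count, and it is no separate support. Of the 83 isolated peaks with a counterpart in replicate 1, 75 (90.4%, 95% Wilson interval 82.1–95.03%) had one with no other replicate 1 peak within 5000 bp, and in replicate 2 it was 99 of 104 (95.2%, 89.2–97.9%). The 8 and 5 others were regions that the replicate had split into several peaks. In all, 9 isolated peaks were split by a replicate, 4 of them by both. Splits were found mostly in wide regions, with 7 of the 14 isolated peaks over 2000 bp wide being split. Applied to replicate 1 alone, the rule gave 131 isolated centre peaks, of which 75 lay at isolated peaks of the combined list, 52 at clustered ones and 4 at no combined peak. In replicate 2 it gave 148, of which 99, 46 and 3 did. Many peaks that were isolated in a single library thus had a neighbour in the longer combined list.

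The distance to the nearer neighbour had a median of 31678 bp (quartiles 12979.5 and 56514.8 bp). At least 10000 bp separated 216 of the 258 from any other peak, at least 50000 bp separated 74 and at least 100000 bp separated 31. The most isolated was chrII:4376258-4377302, with 286602 bp to the nearer neighbour; it had q = 1.78e-07 combined and 5.56e-05 in replicate 1. Next came chrII:6588621-6589938, with 232379 bp, q = 2.46e-12 combined, 1.46e-06 in replicate 1 and 2.62e-09 in replicate 2. The third was chrV:5271283-5272535, with 205611 bp, q = 3.46e-08 combined and 1.62e-05 in replicate 2. Distance and recovery showed no steady order. Both replicates had 13 of the 42 isolated peaks with a neighbour at 5000 to 10000 bp (31.0%, 95% Wilson interval 19.1–46.0%), 12 of 55 at 10000 to 20000 bp, 19 of 87 at 20000 to 50000 bp, 11 of 43 at 50000 to 100000 bp and 8 of 31 beyond that (25.8%, 13.7–43.2%). The median width was 778.5 bp in the nearest of these groups and 565 bp in the farthest.

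For 171 of the 258 (66.3%) the nearer neighbour was itself an isolated centre peak. By the rule clustered peaks stand together in groups, so this share and the stretches below partly follow from the rule. No expected share was worked out. The isolated peaks fell into 84 unbroken stretches with no other kind of peak between, and 127 of them stood in stretches of 5 or more. The longest stretches held 10 isolated peaks each. One ran over chrIV:12032054-13036409, with 4 peaks in both replicates and the best at rank 172. The other ran over chrV:9327541-10204404, also with 4 in both, and included the strong peaks chrV:9342883-9345143 and chrV:9730666-9732618. Stretches of 9 on II and IV held 3 or 4 peaks that were in both replicates. A stretch of 8 on V, chrV:7750611-8500748, held none that was in both, and its best peak was at rank 254. Of all isolated peaks 24.4% were in both, and the difference was not tested.

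The limits of the rule cut through a continuous range of values. Just inside the distance limit were chrII:6836277-6837305 (5077 bp to its neighbour, q = 8.36e-07), chrIV:5747459-5748149 (5093 bp, q = 5.59e-05) and chrIII:3873202-3874159 (5109 bp, q = 0.000148). Just outside it were chrIII:6895078-6895504 and chrIII:6900297-6900864, 4793 bp apart (q = 1.89e-07 and 8.16e-09), and chrIII:6420810-6422915 (4769 bp, q = 2.09e-25). Just inside the position limits were chrIV:4390531-4390807 at 25.1% of the span (q = 0.000144), chrIV:4414575-4415729 at 25.3% (q = 4.89e-13), chrV:5271283-5272535 at 25.4%, and, at the other end, chrIV:13077735-13078009 at 74.8% (q = 3.37e-05), chrIV:13034815-13036409 at 74.6% (q = 8.57e-18) and chrIV:13026476-13027177 at 74.6% (q = 3.73e-07). Isolated peaks just outside were chrV:5064750-5065672 at 24.4% (q = 1.46e-10), chrV:5049333-5050233 at 24.3% (q = 4.65e-19) and chrIV:4215242-4216547 at 24.1% (q = 1.29e-09), and, past the upper limit, chrIV:13109588-13110082 at 75.03% (q = 6.23e-05), chrIII:10338795-10339693 at 75.1% (q = 1.03e-08) and chrII:11452897-11453367 at 75.2% (q = 1.60e-07). The narrowest isolated peaks were chrIII:6798155-6798337 (183 bp, q = 0.000134), chrIII:7479506-7479727 (222 bp, q = 2.23e-05) and chrV:11082469-11082718 (250 bp, q = 5.13e-05), none of which was in a replicate list.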

How the data were processed

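Analysis started from 3 peak lists, a combined one and 1 per ChIP replicate. Peaks were called with PeakSeq on WormBase WS180, per the file headers and source column; the sources used here do not give the control, version, aligner, filters or the making of the combined list. The authors deposited a start, an end and a q-value for each peak, with no read count, height or fold, so depth is unknown and Wilson intervals express counting error alone. The 2 inputs contributed no values.

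Rank 1 in a list is the smallest q-value, ties going to the wider peak. Chromosome spans ended at the last peak of any list (15230109 bp on II, 13764067 on III, 17472430 on IV and 20778489 on V). A peak counted as found in a replicate when at least 1 bp overlapped; scores were taken from the peak of largest overlap, and −log10 of the deposited q-value was used as score. Regions were named by fixed rules: the 10 best, the 2 best per chromosome, the 3 widest, narrowest and most isolated, the 3 best in neither or 1 replicate, the 3 largest rank differences, and those next to each limit; stretches and split regions were added. The members and lists were chosen with earlier results of these data known, and weighting by rank, stretches and midpoint distances were chosen after values were seen. No test was run. Classification and overlap were tested on simulated data. Python 3.11.15, numpy 2.4.6, pandas 2.3.3, scipy 1.17.1 and matplotlib 3.10.9 were used.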

Additional observations from a re-analysis of the deposited data

How the results depend on the processing

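The number of isolated centre peaks was 258, and 318, 216 and 161 with isolation distances of 2500, 10000 and 20000 bp. It was 216 with the centre set to 30 to 70% of the span. With the rule applied again to the better 50% of the combined list alone it was 161. These are not a part of the 258, of which 111 stood at combined rank 615 or better and the next at 627. The 161 include peaks that have a weaker neighbour within 5000 bp in the full list. Shares moved with the overlap asked for. With at least 50% of both peaks overlapping they were 24.0% in replicate 1, 17.8% in both and 58.9% in neither, and with midpoints within 200 bp they were 24.4% in replicate 1, 33.3% in replicate 2, 17.1% in both and 59.3% in neither. With the rule applied to the better 50% of every list, 31.7% of the 161 were in both. Leaving out 1 replicate, by construction, gave 32.2 to 40.3% found and 59.7 to 67.8% not found in the other, and 90.4 to 95.2% of counterparts isolated in their own list (92.8% ± 3.42, SD, n = 2). The median width was 929 bp for the 161 of the better 50% and 665.5 bp for counterparts in replicate 2. The median −log10 q was 10.96 for the same 161 and 6.36 for counterparts in replicate 1. Spearman's rho between replicates stayed between 0.71 and 0.81. Of the 39 settings, 21, some of them printed above, moved a share by less than its Wilson interval, rho by less than its 95% interval, a median by less than the SD between replicates and a count by less than 1.5 times; the cause of the moves was not tested. No paired analysis was possible because no values of the input samples were used. Settings needing a genome were not tried, and with no read counts in the lists depth sets no stated limit.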

Other observations

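Some replicate peaks overlapped no combined peak. Of 15 such peaks in replicate 1, 7 lay in the centres of chromosomes II to V, 5 of them on III, and of 11 in replicate 2, 3 did. One from each replicate lay within 5000 bp of an isolated centre peak. In replicate 1 it was chrIII:3869273-3869885 (q = 2.77e-05), 3317 bp from the isolated peak chrIII:3873202-3874159, and in replicate 2 it was chrIV:5607227-5607815 (q = 4.63e-05), 2394 bp from one. All 10 were weak, at rank 383 or lower of their own list.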
